A study of Homo sapiens with 12 samples.

Results

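The genes described here are RGS16, SLC16A10, TBC1D30, TAF4B, STOM, TRAP1, JPH1, EPB41L3, RADX and CADM2. They are 10 genes outside the ribosomal protein families that were picked because their RNA was higher in cancer cells carrying a MYC vector than in cells carrying a control vector. They are 10 of 57820 gene rows in the count table and 10 of the 17096 genes with enough counts to be tested. The rule named the genes and gave no threshold, so no gene stands just inside or just outside it. Since the MYC difference chose them, that difference, over all lines or in 1 line, is described below with no test. The tests that are given for the 10 genes concern tipifarnib, its interaction with MYC, and control-vector levels in the 3 lines.

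The 12 libraries of polyadenylated RNA came from A549 lung, SKOV3 ovarian and MDA-MB-231 breast cancer cells, lines that the labels describe as lacking MYC amplification. Each line was transduced either with a lentivirus encoding full-length human c-Myc or with a control lentivirus, and transduced cells were kept by puromycin selection. The labels give the genotype of the control cells as WT, although they too had been transduced. Cells then spent 48 h in tipifarnib, an inhibitor of the enzyme farnesyltransferase, or in DMSO, its solvent. The dose was 10 µM in A549 and 20 µM in SKOV3 and MDA-MB-231, so line and dose cannot be told apart in any drug comparison that involves A549. The 4 groups were MYC-vector cells in tipifarnib, MYC-vector cells in DMSO, control-vector cells in tipifarnib and control-vector cells in DMSO. Each group held 3 libraries, 1 per line. No line had a repeat culture within a group, so p-values measure the spread between lines and between the pairs of a line. The labels do not say whether the selected cells were pools or clones, and a larger share of expressing cells cannot be told apart from more RNA per cell.

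Libraries held 20481363 to 26962994 gene counts. ALDH1A1 ranged from 7911 to 9378 CPM in A549 and did not pass 9.50 CPM in the other lines. PAX8 had 173 to 265 CPM in SKOV3 and at most 8.46 CPM elsewhere, and ERBB2 had 1169 to 5747 CPM there. ZEB1 had 107 to 141 CPM in MDA-MB-231 and at most 86.4 CPM elsewhere. VIM had 887 to 1408 CPM in MDA-MB-231, which overlapped SKOV3 (716 to 1021 CPM). CDH1 stayed at or below 0.144 CPM in MDA-MB-231 and had at least 1.71 CPM elsewhere. ESR1 and PGR stayed at or below 0.275 CPM in MDA-MB-231. They did not set it apart from A549, where ESR1 did not pass 0.230 CPM, and PGR did not pass 0.130 CPM in any line. MSLN, listed as a SKOV3 marker, had 3.74 to 8.81 CPM there and did not set that line apart. Of the markers of other cell types, PTPRC and CD3E did not pass 0.505 CPM in any library, and ALB had 0.269 to 10.5 CPM. CPM, the level used here, are counts scaled to the size of the library, after TMM scaling. They are not divided by gene length, so levels are compared between libraries and not between genes.

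MYC is a transcription factor that pairs with MAX and binds short DNA elements called E-boxes, most often at the promoters of genes that are already active. It is best known for raising genes of ribosome production, nucleotide synthesis and mitochondria, and many cancers carry extra copies of it. The 10 genes have unlike roles. RGS16 and TBC1D30 switch off small or heterotrimeric GTPases, SLC16A10 and STOM act at the plasma membrane, and TAF4B, TRAP1 and RADX act in transcription, mitochondria and DNA replication. JPH1, EPB41L3 and CADM2 are proteins of membrane contacts and cell adhesion.

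In the RefSeq promoter table (GRCh38.p14), where JPH1 was not looked up, 6 of the other 9 genes had starts. They were RGS16, SLC16A10, STOM, TRAP1, TAF4B and EPB41L3, with 9 starts in all, 4 of them of EPB41L3. The 250 bases before each start were searched on both strands for the E-box CACGTG and for its variants CACGCG (read as CGCGTG on the other strand) and CATGTG (read as CACATG there). These motifs do not overlap each other in the windows shown. CACGTG occurred in 6.34% of the 35116 promoter windows in the table, CACGCG in 9.72% and CATGTG in 9.42%. RGS16, TRAP1 and TAF4B held CACGCG or its reverse, TAF4B and 1 of the 4 EPB41L3 starts held CACGTG, and CATGTG was in none of the 9 windows. The RGS16, TRAP1 and TAF4B windows were 68.4%, 77.2% and 66.4% G or C, and that EPB41L3 window 38.8%. The median over all windows was 58%. The shares above were not matched for this, and whether the matches exceed them was not tested. The windows with a match are shown because MYC is the factor that differs between the groups, and its binding was not measured. They lie at chr1:182604390-182604639 on the minus strand (RGS16), chr16:3717525-3717774 on the minus strand (TRAP1), chr18:26226195-26226444 on the plus strand (TAF4B) and chr18:5521380-5521629 on the minus strand (the EPB41L3 start). Each is printed from its 5′ to its 3′ end on the strand of the gene, and capitals mark the matches.
RGS16: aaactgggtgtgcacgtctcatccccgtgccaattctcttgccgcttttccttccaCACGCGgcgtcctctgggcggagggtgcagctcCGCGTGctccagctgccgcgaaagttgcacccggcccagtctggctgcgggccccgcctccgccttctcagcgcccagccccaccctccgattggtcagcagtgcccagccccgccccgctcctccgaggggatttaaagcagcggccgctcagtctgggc
TRAP1: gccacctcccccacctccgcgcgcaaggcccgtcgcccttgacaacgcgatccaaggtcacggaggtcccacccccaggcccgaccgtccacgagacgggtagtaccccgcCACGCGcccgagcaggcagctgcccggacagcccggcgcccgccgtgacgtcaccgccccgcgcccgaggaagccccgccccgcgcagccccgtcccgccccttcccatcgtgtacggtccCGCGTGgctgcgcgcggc
TAF4B: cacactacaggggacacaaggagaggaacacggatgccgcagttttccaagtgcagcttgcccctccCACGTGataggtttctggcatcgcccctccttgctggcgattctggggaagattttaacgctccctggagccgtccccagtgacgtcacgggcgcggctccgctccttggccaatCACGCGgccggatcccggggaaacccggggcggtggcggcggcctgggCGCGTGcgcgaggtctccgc
EPB41L3: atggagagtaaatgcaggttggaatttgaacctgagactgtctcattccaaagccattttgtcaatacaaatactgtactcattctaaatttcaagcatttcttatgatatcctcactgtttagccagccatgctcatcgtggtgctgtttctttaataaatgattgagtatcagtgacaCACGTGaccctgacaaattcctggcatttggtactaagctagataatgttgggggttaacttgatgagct
The matches begin 194 and 161 bases before the RGS16 start, 139 and 18 bases before the TRAP1 start, and 183 (CACGTG), 68 and 20 bases before the TAF4B start. The EPB41L3 match begins 70 bases before its start. Gene counts do not show which of the 4 EPB41L3 starts was used.

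MYC itself (ENSG00000136997.10) was high in every library with the MYC vector. In A549, MYC had 506 CPM with the MYC vector and tipifarnib and 912 CPM with the MYC vector and DMSO, against 143 and 105 CPM with the control vector and tipifarnib or DMSO. In SKOV3, MYC had 610.1 and 494 CPM in those MYC-vector libraries, against 99.7 and 48.4 CPM in the control-vector ones. In MDA-MB-231, MYC had 1593 and 709 CPM with the MYC vector, against 349 and 148 CPM with the control vector. All 6 pairs of MYC-vector and control-vector libraries were apart in the same direction, with ratios from 3.53 to 10.2. Counts on MYC do not separate the vector's transcript from the cell's own. The control-vector level, taken over both treatments, differed between the lines by the edgeR quasi-likelihood test (adjusted p = 0.000812). It was highest in MDA-MB-231 for each treatment.

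Across the 3 lines, the MYC-vector libraries of all 10 genes lay above the control-vector libraries of the same line. For each gene and each line, both MYC-vector libraries were higher than both control-vector libraries, a pattern that 3.98% of the 17096 genes showed in all 3 lines. All 10 were also among the genes called higher in the comparison over both treatments, which made up 4.5% of the genes tested. Both facts follow from how the genes were picked. For some genes the separation within a line rested on few counts. The nearest MYC-vector and control-vector libraries held 4 and 4 counts of EPB41L3 in A549 (0.184 against 0.176 CPM). For CADM2 in MDA-MB-231 they held 6 and 4. By the size of the fitted log2 fold change over both treatments, CADM2 stood at rank 7 and RGS16 at rank 12 of 17096, and TRAP1, the lowest of the 10, at rank 631. Over all 3 lines together the 2 sets of libraries overlapped for each of the 10 genes, because levels differed between lines. The plot of levels by library shows these values for all 12 libraries.

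**Figure D1:**
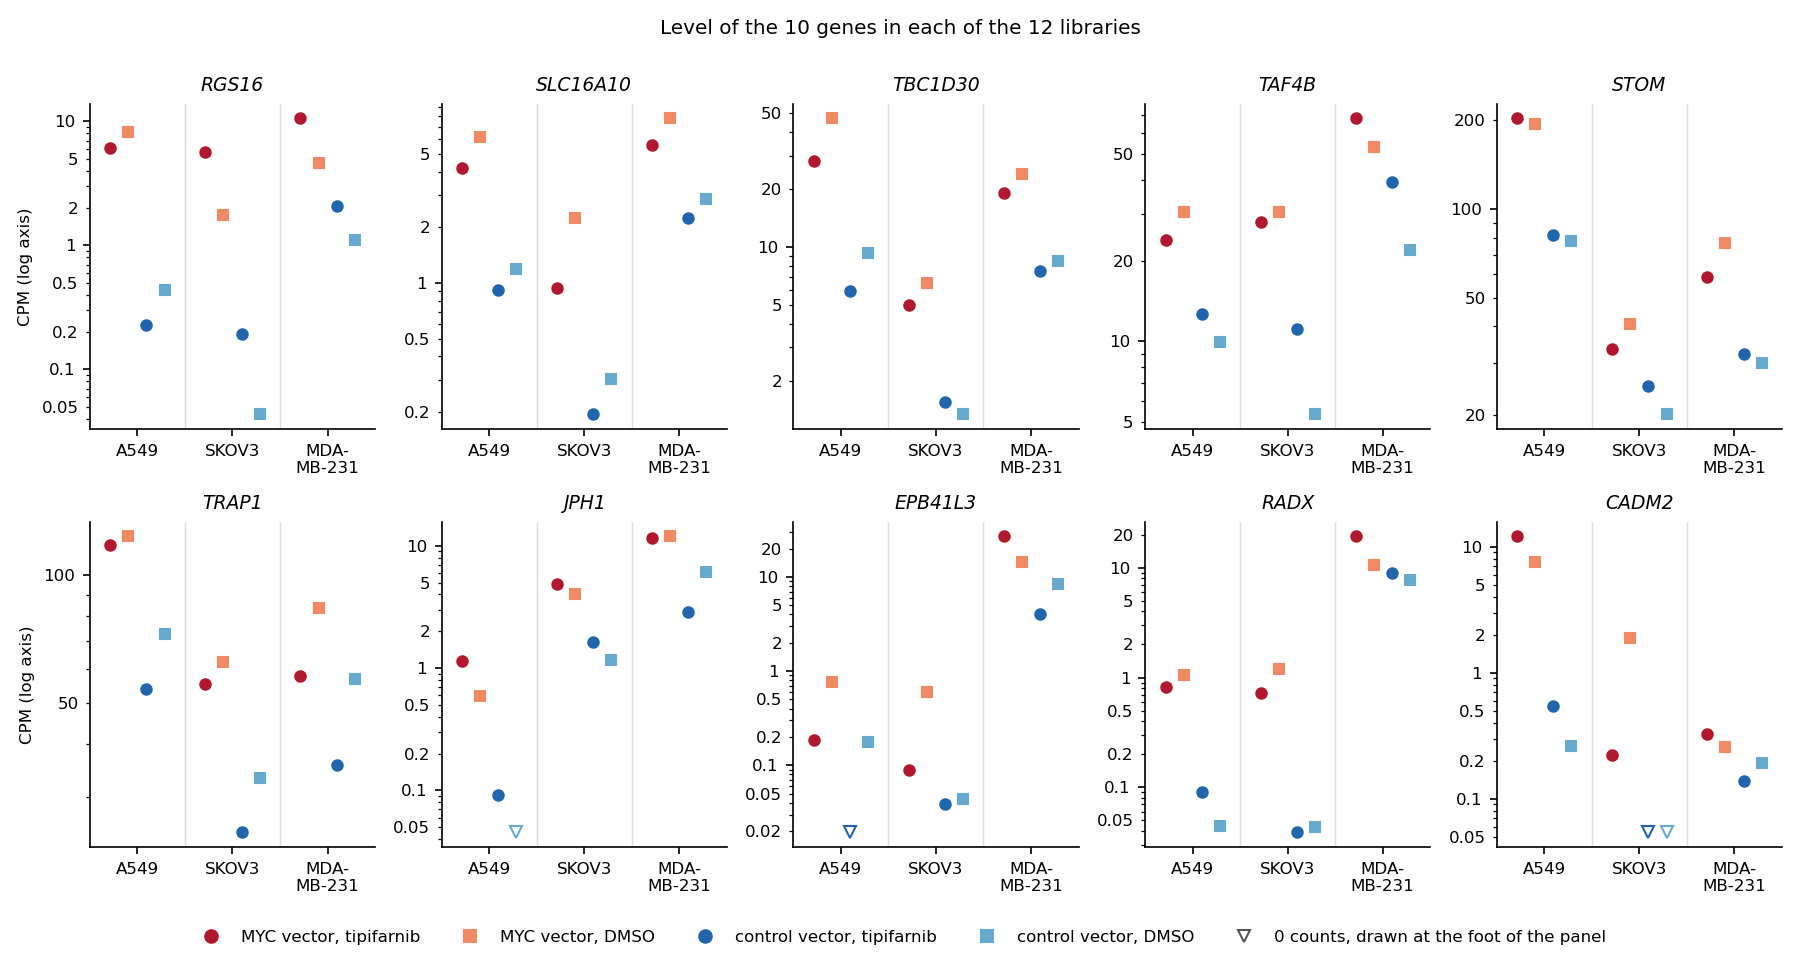
Level of each gene in CPM (log axis) in the 12 libraries, grouped by cell line, with red and orange for MYC-vector cells and dark and light blue for control-vector cells, and open triangles for 0 counts. Within a line the MYC-vector points lie above the control-vector points in all 10 panels, closest for TRAP1 in MDA-MB-231 (57.8 against 56.9 CPM).

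Among the genes of signalling and transport, RGS16 showed the widest differences. RGS16 (ENSG00000143333.6) encodes a protein that speeds up GTP hydrolysis by the alpha subunits of heterotrimeric G proteins and so ends signals from G protein-coupled receptors. In A549, RGS16 had 6.15 CPM with MYC and tipifarnib and 8.21 CPM with MYC and DMSO, against 0.227 and 0.440 CPM in control-vector cells with tipifarnib and with DMSO. In SKOV3, RGS16 had 5.64 and 1.76 CPM in MYC-vector cells with tipifarnib and with DMSO, against 0.194 and 0.0434 CPM in control-vector cells. In MDA-MB-231, RGS16 had 10.5 and 4.61 CPM in MYC-vector cells, against 2.06 and 1.10 CPM in control-vector cells. The control-vector libraries of A549 and SKOV3 held 1 to 10 counts of RGS16, so the gene was barely detected there and clearly present with MYC. The fitted log2 fold change over both treatments was 3.59 ± 0.54 (SE), and the 6 ratios ran from 4.17 in MDA-MB-231 with DMSO to 40.5 in SKOV3 with DMSO, the last with a 95% counting interval of 6.92 to 1633 because the control held 1 count.

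SLC16A10 (ENSG00000112394.12) encodes a plasma membrane carrier of aromatic amino acids and thyroid hormone. In A549, SLC16A10 had 4.18 and 6.15 CPM in MYC-vector cells with tipifarnib and with DMSO, against 0.910 and 1.19 CPM in control-vector cells. In SKOV3, SLC16A10 had 0.940 and 2.24 CPM in MYC-vector cells, against 0.194 and 0.304 CPM in control-vector cells. In MDA-MB-231, SLC16A10 had 5.56 and 7.75 CPM in MYC-vector cells, against 2.24 and 2.83 CPM in control-vector cells. Its ratios were narrower than those of RGS16, from 2.48 to 7.38, and the fitted log2 fold change was 2.01 ± 0.27. Within each line and vector the tipifarnib library was the lower one.

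TBC1D30 (ENSG00000111490.8) belongs to the TBC domain proteins, which switch off Rab GTPases of membrane traffic. In A549, TBC1D30 had 28.1 and 46.8 CPM in MYC-vector cells with tipifarnib and with DMSO, against 5.91 and 9.37 CPM in control-vector cells. In SKOV3, TBC1D30 had 4.97 and 6.51 CPM in MYC-vector cells, against 1.56 and 1.35 CPM in control-vector cells. In MDA-MB-231, TBC1D30 had 19.2 and 24.0 CPM in MYC-vector cells, against 7.55 and 8.50 CPM in control-vector cells. All 6 ratios were between 2.55 and 5.00, with a fitted log2 fold change of 1.88 ± 0.18, and the smallest count behind any of them was 31. A549 in DMSO held the highest level, and SKOV3 the lowest levels with either vector.

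STOM (ENSG00000148175.8) encodes stomatin, a scaffold protein of membrane microdomains that was first known from red blood cells. In A549, STOM had 203 and 195 CPM in MYC-vector cells with tipifarnib and with DMSO, against 81.5 and 78.0 CPM in control-vector cells. In SKOV3, STOM had 33.5 and 40.8 CPM in MYC-vector cells, against 25.0 and 20.1 CPM in control-vector cells. In MDA-MB-231, STOM had 58.7 and 76.6 CPM in MYC-vector cells, against 32.2 and 30.0 CPM in control-vector cells. Here the control-vector level was already high in all lines, and the ratios stayed between 1.34 in SKOV3 with tipifarnib and 2.55 in MDA-MB-231 with DMSO. The fitted log2 fold change was 1.06 ± 0.11.

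TAF4B (ENSG00000141384.7) encodes a form of the TAF4 subunit of TFIID, the complex that recognises core promoters, and is best known from germ cells and B cells. In A549, TAF4B had 23.9 and 30.4 CPM in MYC-vector cells with tipifarnib and with DMSO, against 12.6 and 9.94 CPM in control-vector cells. In SKOV3, TAF4B had 28.0 and 30.4 CPM in MYC-vector cells, against 11.1 and 5.34 CPM in control-vector cells. In MDA-MB-231, TAF4B had 68.2 and 53.2 CPM in MYC-vector cells, against 39.4 and 22.0 CPM in control-vector cells. In all lines the vectors stood further apart in DMSO than in tipifarnib, and the control-vector level was higher with the drug. The fitted log2 fold change over both treatments was 1.40 ± 0.17, made up of 1.01 ± 0.24 in tipifarnib and 1.79 ± 0.24 in DMSO.

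TRAP1 (ENSG00000126602.6) encodes the HSP90 chaperone of mitochondria. In A549, TRAP1 had 118 and 124 CPM in MYC-vector cells with tipifarnib and with DMSO, against 54.0 and 72.5 CPM in control-vector cells. In SKOV3, TRAP1 had 55.2 and 62.4 CPM in MYC-vector cells, against 24.7 and 33.2 CPM in control-vector cells. In MDA-MB-231, TRAP1 had 57.8 and 83.7 CPM in MYC-vector cells, against 35.5 and 56.9 CPM in control-vector cells. Its ratios ran from 1.47 to 2.24, and its fitted log2 fold change over both treatments, 0.87 ± 0.10, was the smallest of the 10. They were also the most even, with an SD of 0.24 over the 6 log2 ratios. TRAP1 overlaps DNASE1 on the opposite strand in the GENCODE annotation, and the sources used here do not say whether counting used strand.

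RADX (ENSG00000147231.9) encodes a protein that binds single-stranded DNA at replication forks and helps to protect them. In A549, RADX had 0.827 and 1.05 CPM in MYC-vector cells with tipifarnib and with DMSO, against 0.0910 and 0.0440 CPM in control-vector cells. In SKOV3, RADX had 0.716 and 1.20 CPM in MYC-vector cells, against 0.0389 and 0.0434 CPM in control-vector cells. In MDA-MB-231, RADX had 19.3 and 10.6 CPM in MYC-vector cells, against 8.97 and 7.73 CPM in control-vector cells. The control-vector libraries of A549 and SKOV3 held only 1 or 2 counts of RADX, while MDA-MB-231 expressed it with either vector. The ratio was 27.6 in SKOV3 with DMSO (95% counting interval 4.61 to 1122) and 1.37 in MDA-MB-231 with DMSO (1.12 to 1.68).

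JPH1 (ENSG00000104369.4) encodes a junctophilin, a protein that ties the endoplasmic or sarcoplasmic reticulum to the plasma membrane and is best known from skeletal muscle. In A549, JPH1 had 1.15 and 0.589 CPM in MYC-vector cells with tipifarnib and with DMSO, against 0.0910 and 0 CPM in control-vector cells. In SKOV3, JPH1 had 4.88 and 4.0 CPM in MYC-vector cells, against 1.63 and 1.17 CPM in control-vector cells. In MDA-MB-231, JPH1 had 11.6 and 11.9 CPM in MYC-vector cells, against 2.88 and 6.15 CPM in control-vector cells. With DMSO, A549 showed a JPH1 level at least 4.47-fold higher with MYC, taking 3 counts as the floor of the control library at 0. The fitted log2 fold change over both treatments was 1.89 ± 0.42. JPH1 overlaps GDAP1 on the opposite strand.

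EPB41L3 (ENSG00000082397.11) encodes a band 4.1 protein that links membrane proteins to the spectrin and actin cytoskeleton. In MDA-MB-231, EPB41L3 had 26.9 and 14.6 CPM in MYC-vector cells with tipifarnib and with DMSO, against 4.03 and 8.45 CPM in control-vector cells. In A549, EPB41L3 had 0.184 and 0.758 CPM in MYC-vector cells, against 0 and 0.176 CPM in control-vector cells. In SKOV3, EPB41L3 had 0.0895 and 0.598 CPM in MYC-vector cells, against 0.0389 and 0.0434 CPM in control-vector cells. The A549 and SKOV3 libraries held at most 18 counts, so MDA-MB-231 is the line in which the gene was clearly expressed. There the ratio was 6.69 in tipifarnib (95% counting interval 5.36 to 8.45) and 1.72 in DMSO (1.43 to 2.08). In tipifarnib the interval in SKOV3 included 1 (0.120 to 136, from 2 against 1 counts). In A549 with tipifarnib its lower limit was 0.666, from 4 against 0 counts. In DMSO the intervals were 1.42 to 17.5 in A549 (18 against 4 counts) and 2.14 to 578 in SKOV3 (16 against 1). Each compares 1 library with 1 library and covers counting error only. EPB41L3 was chosen on this difference, so none of these intervals is a test of it.

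CADM2 (ENSG00000175161.9) encodes a cell adhesion molecule of the immunoglobulin superfamily that is best known from neurons. In A549, CADM2 had 12.1 and 7.54 CPM in MYC-vector cells with tipifarnib and with DMSO, against 0.546 and 0.264 CPM in control-vector cells. In SKOV3, CADM2 had 0.224 and 1.87 CPM in MYC-vector cells, and both control-vector libraries were at 0 counts. In MDA-MB-231, CADM2 had 0.325 and 0.258 CPM in MYC-vector cells, against 0.137 and 0.192 CPM in control-vector cells. The wide difference thus rested on A549, with ratios of 22.1 and 28.6, and on SKOV3, with a level at least 14.4-fold higher in DMSO and at least 1.92-fold higher in tipifarnib against a floor of 3 counts. In MDA-MB-231 the MYC-vector libraries held 9 and 6 counts against 3 and 4, and the intervals of both ratios included 1 (0.591 to 13.6 in tipifarnib and 0.319 to 6.48 in DMSO). The rank of CADM2 over all lines therefore depends on libraries at or near 0 counts. CADM2 also overlaps the antisense genes CADM2-AS1 and CADM2-AS2.

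The fitted MYC difference is given here for each line, as a description. The median fitted log2 fold change of the 10 genes was 1.25 in MDA-MB-231, 2.29 in SKOV3 and 2.33 in A549, beside medians of 0.00 over all genes tested. MDA-MB-231 had the smallest fitted value for 9 of the 10 genes, the exception being STOM, which was smallest in SKOV3 (0.72 ± 0.17 against 1.32 ± 0.16 in A549 and 1.11 ± 0.16 in MDA-MB-231). Over all genes, the edgeR test of a difference between lines in the MYC difference called 3.07%. No such test is read for the 10 genes, because they were chosen on the same MYC and control libraries. For RGS16 the fitted log2 values were 2.22 ± 0.30 in MDA-MB-231, 4.91 ± 0.44 in SKOV3 and 4.42 ± 0.36 in A549. For RADX the values were 0.79 ± 0.27 in MDA-MB-231, 4.35 ± 0.64 in SKOV3 and 3.70 ± 0.60 in A549. CADM2 had 4.60 ± 0.42 in A549 and 0.82 ± 0.64 in MDA-MB-231. For RGS16 and RADX the control-vector libraries of A549 and SKOV3 held between 1 and 10 counts. MYC itself had 2.23 ± 0.27 in MDA-MB-231, 2.98 ± 0.28 in SKOV3 and 2.47 ± 0.28 in A549.

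**Figure D2:**
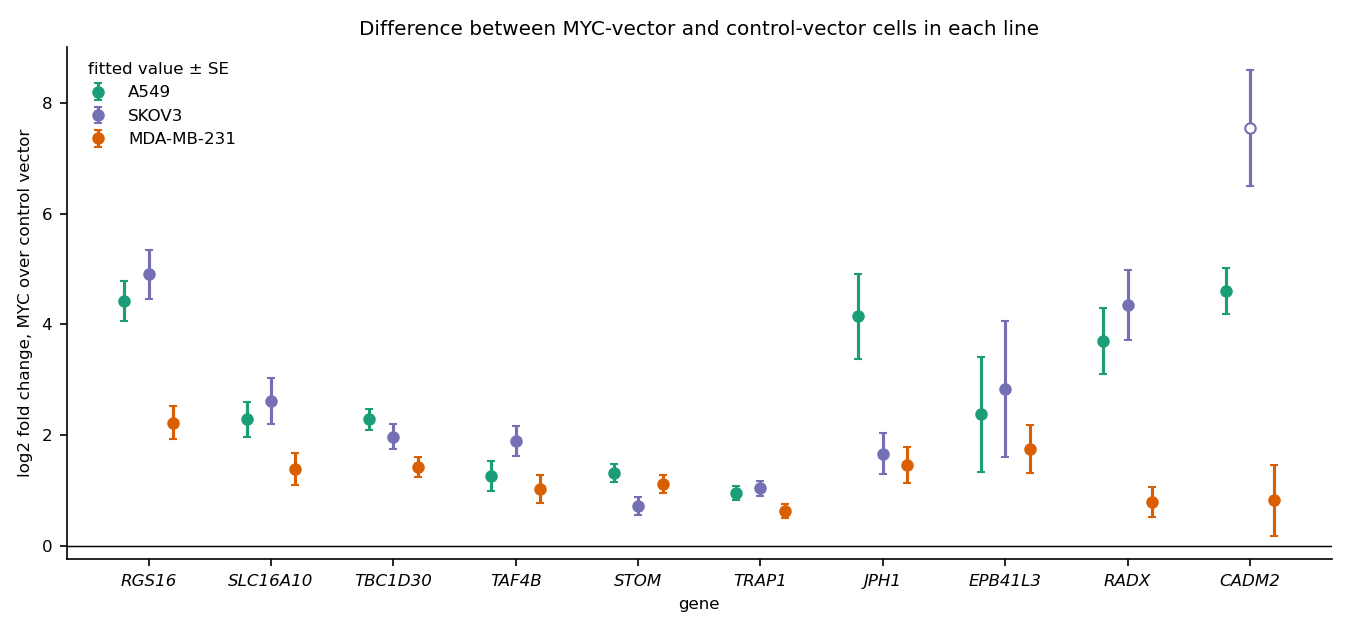
Fitted log2 fold change of MYC-vector over control-vector cells ± SE in each line, over both treatments, with an open marker where both control-vector libraries were at 0 counts. MDA-MB-231 lies lowest for 9 of the 10 genes, and the RADX and RGS16 values of that line (0.79 and 2.22) lie apart from those of A549 (3.70 and 4.42).

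The levels without the MYC vector also differed between lines. In control-vector cells all 10 genes differed between lines, as did 78.6% of all genes. All 10 were higher in MDA-MB-231 than in SKOV3, a direction called for 29.8% of all genes, and 8 to 10 of them were called under the alternatives. The gap was widest for RADX, with a log2 difference of 7.51 ± 0.50, and for EPB41L3, with 7.36 ± 0.83. Both sizes rest on 1 count in each SKOV3 control-vector library. In MDA-MB-231 with tipifarnib and with DMSO, RADX had 196 and 161 counts and EPB41L3 88 and 176. The gap was narrowest for STOM, with 0.47 ± 0.17 (adjusted p = 0.0337). STOM had 0.17 without the SKOV3 control-vector library in DMSO (adjusted p = 0.522) and 0.23 without the MDA-MB-231 control-vector library in tipifarnib (0.479). Without the SKOV3 control-vector library in tipifarnib it had 0.78, and without the MDA-MB-231 one in DMSO 0.71. JPH1 did not pass by limma-voom (adjusted p = 0.109) or without the MDA-MB-231 control-vector library in DMSO (0.105). CADM2, with 3 and 4 counts in MDA-MB-231 against 0 and 0 in SKOV3, did not pass without the SKOV3 (adjusted p = 0.196) or the MDA-MB-231 (0.0546) control-vector library in DMSO. Against A549, 6 genes were higher in MDA-MB-231 (26.9% of all genes) and 2, STOM and TRAP1, were lower (29.8% of all genes), while TBC1D30 and CADM2 did not pass. Under the alternatives 5 to 8 of the 10 were called, and the calls of TRAP1, SLC16A10 and TAF4B did not hold in all of them. SKOV3 was lower than A549 for 6 genes (29.7% of all genes) and higher for JPH1 alone (28.2% of all genes), by 4.91 ± 0.71 on the log2 scale. That size rests on 2 and 0 JPH1 counts in the A549 control-vector libraries, and ran from 4.33 to 7.56 under the alternatives. There 4 to 7 of the 10 genes were called, and the calls of SLC16A10 and CADM2 did not hold in all of them. The call of RGS16 between SKOV3 and A549 rests on 1 to 10 counts and did not hold by DESeq2 or limma-voom, and CADM2 was at 0 counts in SKOV3. The differences of TAF4B, EPB41L3 and RADX between SKOV3 and A549 did not pass. For TAF4B the order of the control-vector levels was MDA-MB-231 above A549 and SKOV3, and the last pair did not differ beyond its error (log2 difference -0.50 ± 0.28, adjusted p = 0.153). A line's control-vector libraries enter both its level and its MYC difference, so the 2 quantities are not independent. The genes were picked on the MYC difference, so these tests of level are not independent of that choice.

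With tipifarnib, over both vectors, 1 of the 10 genes passed the test, TRAP1, which was lower in tipifarnib than in DMSO in 6 of 6 pairs, with a log2 fold change of -0.38 ± 0.10 (adjusted p = 0.0365). Genes that were lower made up 6.63% of all genes, and genes called in either direction 11.3%, so 1 of 10 is close to the background. The fall of TRAP1 did not pass without A549 (adjusted p = 0.109), without SKOV3 (0.0911) or without MDA-MB-231 (0.246). SLC16A10 was lower with tipifarnib in 6 of 6 pairs by -0.59 ± 0.26 on the log2 scale, and did not pass (adjusted p = 0.173). TBC1D30 was lower in 5 of 6 pairs, with -0.36 ± 0.18, and did not pass (adjusted p = 0.221). EPB41L3 had -0.99 ± 0.50 and did not pass (adjusted p = 0.227), with -2.16 without MDA-MB-231 and -0.54 without A549. Its 4 pairs in A549 and SKOV3 held 0 to 18 counts. In MDA-MB-231, where EPB41L3 was clearly expressed, tipifarnib over DMSO was 1.85 in MYC-vector cells (95% counting interval 1.63 to 2.11) and 0.476 in control-vector cells (0.365 to 0.619). STOM had -0.01 ± 0.11. No gene of the 10 was called within MYC-vector cells, where 1.12% of all genes were called, or within control-vector cells, where 1.78% were. MYC itself had a log2 fold change of 0.19 ± 0.33 in MYC-vector cells and of 0.92 ± 0.32 in control-vector cells, and neither passed (adjusted p = 0.828 and 0.193). The value for MYC-vector cells averages opposite directions. There MYC was lower with tipifarnib in A549, at 0.555 of the DMSO level (95% counting interval 0.542 to 0.568). The same ratio was 2.25 for MDA-MB-231 (2.21 to 2.29) and 1.24 for SKOV3 (1.21 to 1.27). With the control vector MYC was higher in tipifarnib in every line, with ratios from 1.37 (A549) to 2.36 (MDA-MB-231).

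The response of 2 genes to tipifarnib differed between lines, where 7.69% of all genes differed. RGS16 had higher levels with tipifarnib in SKOV3 and MDA-MB-231 and lower ones in A549, with either vector. In control-vector cells this rests on 5 against 10 counts in A549 and on 5 against 1 in SKOV3, and the counting intervals of both ratios included 1 (0.139 to 1.66 and 0.501 to 212). Its fitted log2 fold change was 1.08 ± 0.29 in MDA-MB-231, 1.71 ± 0.38 in SKOV3 and -0.52 ± 0.33 in A549 (adjusted p = 0.0436), and SKOV3 minus A549 was 2.24 ± 0.50 (adjusted p = 0.0446, where 3.4% of all genes were called). CADM2 had 0.04 ± 0.63 in MDA-MB-231, -2.98 ± 0.66 in SKOV3 and 0.77 ± 0.39 in A549 (adjusted p = 0.0451), and SKOV3 minus A549 was -3.75 ± 0.77 (adjusted p = 0.0400). Its SKOV3 value came from MYC-vector cells only, which held 5 counts in tipifarnib and 50 in DMSO, since the control-vector cells had none. Leaving out any of the 12 libraries in turn ended the call of RGS16 (adjusted p from 0.0528 to 0.171). In those fits the call of CADM2 held only without a SKOV3 control-vector library (0.0447 and 0.0449). It did not hold by DESeq2 (adjusted p = 0.0767) or limma-voom (0.0714). Of the other 8 genes, SLC16A10, TRAP1, TBC1D30 and EPB41L3 had fitted values below 0 in all 3 lines. That of EPB41L3 in MDA-MB-231 was -0.019 ± 0.42. STOM lay between -0.15 and 0.06. In MYC-vector cells MYC itself moved with tipifarnib in the same direction as RGS16 in each line. In control-vector cells of A549 MYC was higher with tipifarnib, where RGS16 was lower. Over both vectors the response of MYC did not pass the edgeR test of a difference between lines (adjusted p = 0.0917). Whether the RGS16 response follows that of MYC was not tested.

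**Figure D3:**
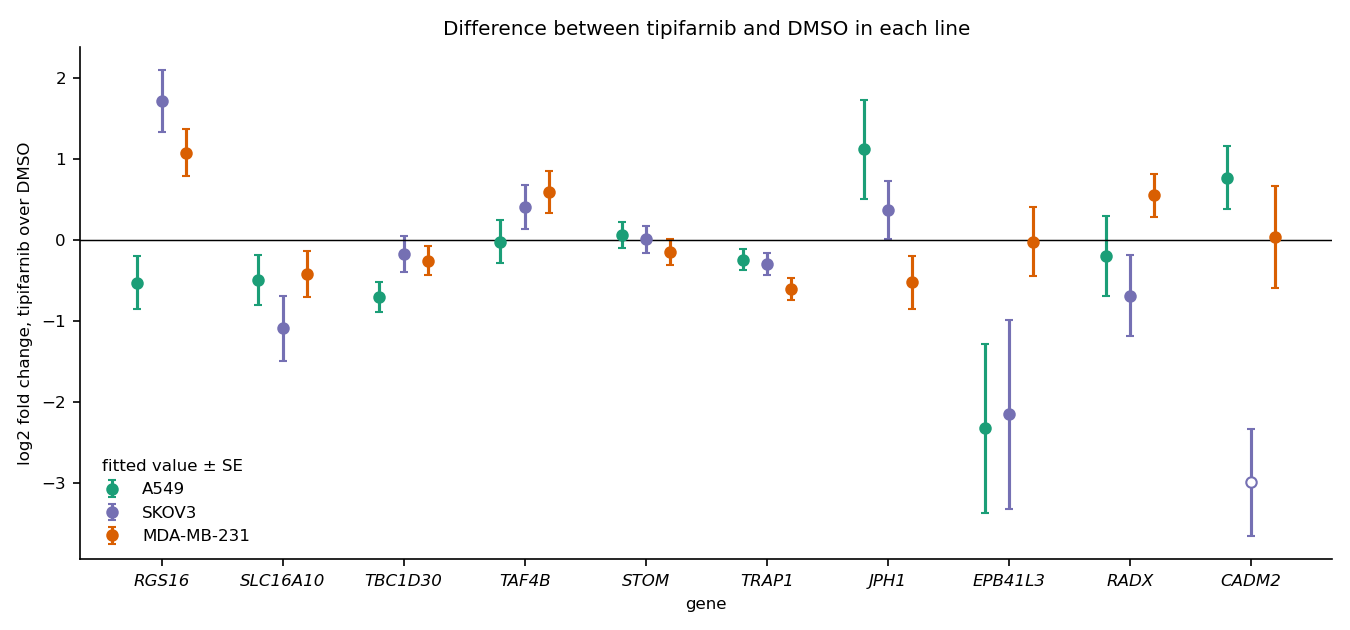
Fitted log2 fold change of tipifarnib over DMSO ± SE in each line, over both vectors, with an open marker where both control-vector libraries were at 0 counts. RGS16 lies at -0.52 in A549 and at 1.71 and 1.08 in SKOV3 and MDA-MB-231, and CADM2 at -2.98 in SKOV3.

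A test of the interaction of MYC and tipifarnib, which asks whether the MYC difference was larger or smaller with the drug, called none of the 10 and no gene at all. At an unadjusted p under 0.05 the edgeR test gave 125 genes. TAF4B was the only one of the 10 with an unadjusted p under that limit (0.0427, adjusted p = 1), with a log2 difference of -0.78 ± 0.34. In control-vector cells TAF4B was higher with tipifarnib in all 3 lines, by 0.73 ± 0.24 on the log2 scale (adjusted p = 0.167), and in MYC-vector cells its value was -0.05 ± 0.23. The SE of this difference ran from 0.20 for TRAP1 to 1.73 for CADM2 on the log2 scale, and a gene that did not pass is not shown to lack an interaction. The MYC difference of the 10 genes had fitted log2 values from 0.88 to 3.68 in tipifarnib and from 0.74 to 4.29 in DMSO. Neither of those comparisons alone called any gene by the edgeR test (2096 and 2667 genes had an unadjusted p under 0.05).

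Families and partners of the 10 genes were followed to see how far the rise went beyond the members themselves. The 10 genes were left out of these counts, and genes called higher and lower with MYC made up 4.5% and 2.84% of all genes. The lists were chosen with earlier results of these data known, so their counts are descriptions and not independent support. Mitochondrial chaperones and proteases, the setting of TRAP1, held 7 of 16 genes that rose and none that fell, with a median log2 fold change of 0.44 beside 0.00 over all genes. Among them were HSPD1 (0.61 ± 0.12, adjusted p = 0.0211), which folds imported proteins, the import motor cofactor GRPEL1 (0.65 ± 0.13, adjusted p = 0.024), the protease subunit CLPX and cyclophilin D (PPIF). The HSP90 proteins and cochaperones outside mitochondria held 1 of 5 that rose, AHSA1 (0.38 ± 0.09, adjusted p = 0.0311), and HSP90AB1 had 0.29 ± 0.11 (adjusted p = 0.149). Genes widely known as MYC targets, listed for comparison, held 11 of 22 that rose and none that fell, with a median of 0.56. GNL3 (0.76 ± 0.10), LYAR (1.09 ± 0.14) and NPM1 (0.65 ± 0.10), which act in the nucleolus, were among them, as was PPAT (0.65 ± 0.08) of purine synthesis.

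Few direct relatives of the other members were called. Over all genes 4.5% were called higher and 2.84% lower. Few or no calls in lists of this size therefore do not set them apart from all genes. In the RGS family 0 of 11 genes rose or fell, and the smallest p was that of RGS3, at -0.57 ± 0.16 (adjusted p = 0.0641). Of 18 TBC domain genes, TBC1D4 alone rose (1.04 ± 0.17, adjusted p = 0.012). Of 14 other TFIID subunits, TAF5 alone rose (0.50 ± 0.13, adjusted p = 0.0429), and TAF4, the paralogue of TAF4B, had 0.18 ± 0.09 (adjusted p = 0.248). Of the 13 genes of replication fork protection reported here none rose or fell with MYC. In the stomatin family and flotillins 2 of 6 rose, the mitochondrial proteins PHB2 (0.51 ± 0.08) and STOML2 (0.46 ± 0.09), and FLOT1 fell (-0.40 ± 0.10). In the band 4.1 family EPB41 rose (1.14 ± 0.26, adjusted p = 0.0317) as 1 of 10 genes. Of 7 CADM and nectin adhesion genes 1 fell, NECTIN2 (-0.41 ± 0.09), while CADM1 had -0.81 ± 0.36 and did not pass (adjusted p = 0.198).

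Of the 14 monocarboxylate and aromatic amino acid transporters reported here, relatives of SLC16A10, none rose or fell with MYC, and the list does not hold the whole family. The smallest p there was that of SLC43A1, a carrier of large neutral amino acids, at 1.29 ± 0.35 (adjusted p = 0.0535). In the family of JPH1, a near relative fell where the member was high. JPH2, the junctophilin best known from heart muscle, was lower with MYC in 6 of 6 pairs (-2.14 ± 0.38, adjusted p = 0.0152). Its levels in MYC-vector cells with tipifarnib and with DMSO were 0.964 and 0.337 CPM in A549, against 6.64 and 4.66 CPM in control-vector cells. In SKOV3, JPH2 had 0.761 and 0.823 CPM in MYC-vector cells, against 3.46 and 2.69 CPM in control-vector cells, and in MDA-MB-231 it had 1.26 and 1.25 CPM against 2.33 and 4.23 CPM. Among the other genes of calcium entry and release, ITPR1 rose (1.17 ± 0.24) and ORAI2 fell (-0.47 ± 0.12). Of the 19 called genes given with values or names in these families, 0 were called without A549, 0 without SKOV3 and 3 (TBC1D4, PPIF and LYAR) without MDA-MB-231, and all kept their direction.

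**Figure D4:**
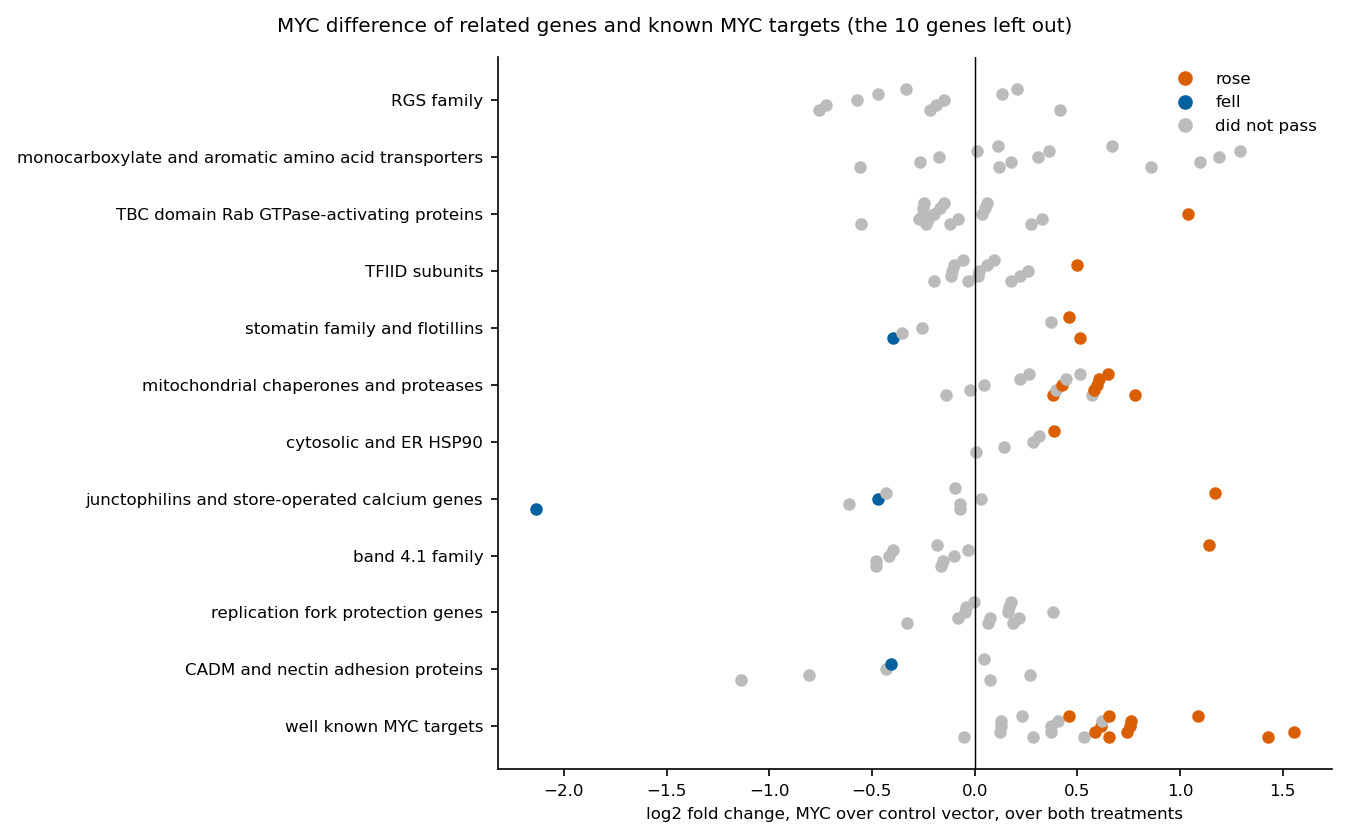
Log2 fold change of MYC-vector over control-vector cells, over both treatments, for each tested gene of 12 lists, with the 10 genes themselves left out, orange for genes that rose, blue for genes that fell and grey for genes that did not pass. Mitochondrial chaperones (7 of 16) and known MYC targets (11 of 22) hold most of the orange points, and JPH2 (-2.14) is the blue point farthest to the left.

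With tipifarnib, over both vectors, most of the fork protection list fell. Of its 13 genes 10 fell and none rose, with a median of -0.47, where 6.63% of all genes fell. RPA2 (-0.41 ± 0.10, adjusted p = 0.0257), HLTF (-0.38 ± 0.09, adjusted p = 0.0274) and ATR (-0.36 ± 0.09, adjusted p = 0.0387) were among them, while RADX itself had -0.01 ± 0.40. The known MYC targets held 10 of 22 that fell, PPAT, GNL3 and NPM1 among them, and none that rose. In the mitochondrial chaperone list 1 of 16 fell with tipifarnib, beside the fall of TRAP1. Whether these list calls hold without a line, or under the other alternatives, was not tested. Over all genes, 1929 were called for tipifarnib over both vectors, and 87 without MDA-MB-231. TRAP1, with an adjusted p of 0.0365 in the edgeR test, did not pass when any line was left out. The dose was lower in A549 than in the other lines, and its part in these falls was not tested.

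Over the 12 libraries, after each line's mean was taken off, the 10 genes followed MYC and one another closely, as their choice implies. Pearson's r of log2 CPM with MYC was 0.702 for EPB41L3, 0.712 for TRAP1 and 0.977 for TAF4B, and the other genes lay between the last pair. Among the 45 pairs of members r ran from 0.597 to 0.971, with a median of 0.848. The points share cell line and vector, so these values describe the 4 groups more than gene-by-gene variation. Of 11519 other genes with a mean log2 CPM of at least 1, the one most like each member was FAM216A for RGS16 (r = 0.983), RPL27A for SLC16A10 (0.993), MDH2 for TBC1D30 (0.991), PLD6 for TAF4B (0.981) and SLC27A5 for STOM (0.959). For the other members it was PHB2 for TRAP1 (0.981), PPP1R15B for JPH1 (0.966), PPHLN1 for EPB41L3 (0.939), GGA1 for RADX (0.968) and ACSS3 for CADM2 (0.963).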

How the data were processed

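Polyadenylated RNA of 12 cultures was sequenced, and the authors deposited a table of raw read counts per gene, 1 column per library. The library kit was a SMARTER mRNA-Seq one, per the labels. Per the submitters' processing notes, TopHat2, HTSeq and DESeq2 were used with the hg19 build, and their versions and settings are not given in the sources used here. The table held 57820 gene rows and 5 HTSeq summary rows, which held 17.5% to 19.9% of a library's counts and were left out. Symbols came from an annotation on GRCh38, used for names, gene neighbours and RefSeq promoter windows only, so promoter coordinates are on GRCh38.p14.

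Groups were taken from the sample titles. The filterByExpr function, given the 4 groups, left 17096 genes, and libraries were scaled with TMM. For comparisons over lines a model of cell line and group was fitted in edgeR 4.0.16 and tested by quasi-likelihood (6 residual degrees of freedom). For comparisons between lines the model had a MYC and a tipifarnib effect for every cell line (3 residual degrees of freedom), in which the interaction is the error term. P-values were Benjamini-Hochberg adjusted over all genes, with a threshold of 0.05. SE is the log2 fold change divided by the square root of the F statistic. Counting intervals are exact 95% intervals from the counts and cover counting error only, and a library at 0 was given a floor of 3 counts. The scripts were tested on simulated data.

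Cell line was the block, since the 4 libraries that share a line form its pairs. With group means subtracted, libraries from 1 line correlated across genes with r from 0.829 to 0.922 (18 pairs) and those of other lines with r from -0.551 to -0.307 (36 pairs). Each group mean is taken over 1 library per line, so this step by itself pushes r between lines below 0. The values describe how unlike the lines were and do not test the choice of block. The 2 pairs of a line may share an effect of that line, which the model of line and group counts as independent.

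The members and the 12 lists were chosen with earlier results of these data known, and some items are not reported here. Named genes were the members, MYC, up to 4 genes of each list with the smallest p in the MYC comparison, and for each member the most similar gene by Pearson's r. Alternatives were DESeq2 1.42.0 size factors, DESeq2, limma-voom (limma 3.58.1), no low count filter, no line block, and leaving out each line or library in turn. Software was R 4.3.3, Python 3.11.15, pandas 2.3.3 and matplotlib 3.10.9.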

Additional observations from a re-analysis of the deposited data

Results flagged for a closer look

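The tipifarnib difference of RGS16 differed between lines (adjusted p = 0.0436, edgeR), with opposite signs in A549 and in the other lines, where the dose was 20 µM and not 10 µM. Leaving out any of the 12 libraries ended that call (adjusted p from 0.0528 to 0.171). The tipifarnib difference of CADM2 differed between lines too (adjusted p = 0.0451, edgeR), but did not pass by DESeq2 (0.0767) or limma-voom (0.0714). Its SKOV3 value compares 5 with 50 counts in MYC-vector cells. The part of dose, of low counts and of the level of MYC itself in these results was not tested.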

How the results depend on the processing

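The fitted MYC difference of each of the 10 genes kept its sign in every alternative fit that held the gene, and CADM2 had too few counts to be fitted without A549. Counts of calls moved far more. By DESeq2, 2405 genes were called for MYC over both treatments, 905 in DMSO and 443 in tipifarnib. For tipifarnib DESeq2 called 3032 genes over both vectors, 1155 (1 member) in control-vector and 1026 in MYC-vector cells, and for differences between lines 971 (MYC) and 2217 (tipifarnib, 1 member). Limma-voom called 159 genes for MYC in DMSO, 9 in tipifarnib and 403 for tipifarnib in MYC-vector cells, and 1 member for tipifarnib differences between lines. With no low count filter the counts were 402, 99, 551, 5.5e+02, 1843 and 3198 for MYC in DMSO, MYC in tipifarnib, tipifarnib in control-vector cells, tipifarnib in MYC-vector cells, and MYC and tipifarnib differences between lines, and 0 members passed for tipifarnib over both vectors. Without the cell line as replicate block, 0 genes were called for MYC over both treatments, 0 genes and 0 members for tipifarnib over both vectors, and 0 genes for tipifarnib within either vector. None of the 19 named calls outside the members held without that block.

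Leaving out each line gave 10 to 148 genes for MYC over both treatments (10 without A549), 0 to 2 genes in DMSO and 0 to 1 in tipifarnib. It gave 87 to 1174 genes and 0 members for tipifarnib over both vectors (87 without MDA-MB-231), and 0 to 23 and 0 to 73 genes in control-vector and MYC-vector cells. Leaving out each library gave 136 to 641 genes for MYC, and 65 to 1950 genes and 0 to 1 members for tipifarnib differences between lines. Tipifarnib values near 0 changed sign. RADX had 0.00031 with size factors, 0.45 by limma-voom, 0.0080 with no filter, 0.46 without the block and -0.020 to 0.25 without a line. JPH1 had -0.035, -0.29 (no block) and -0.13 to 0.68, CADM2 0.26, 0.47 and 0.0058 to 0.46, and STOM 0.0061 (no filter), 0.017 and -0.049 to 0.067. TAF4B in MYC-vector cells had 0.0042 by limma-voom, 0.075 without the block and -0.21 to 0.11, and MYC there -0.21 to 0.70. Between SKOV3 and A549, leaving out libraries gave RADX a MYC difference of -0.071 to 1.24 and control-vector levels of -1.14 to 0.040 (TAF4B), -1.84 to 1.82 (EPB41L3) and -1.25 to 0.057 (RADX). The cause of these changes was not tested. RGS16, SLC16A10, JPH1, EPB41L3, RADX and CADM2 are limited by depth in at least 1 line.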
